A study of Homo sapiens with 4 samples.

Results

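The Eph receptors and ephrins, the SLIT ligands and ROBO receptors, and the netrins and their receptors steer growing axons and migrating cells. Chromatin accessibility was examined at 37 of these genes in A375 cells, an established human melanoma line, after exposure to a medium-chain fatty acid. The assay was ATAC-seq, which reads open DNA from where a transposase, Tn5, can insert its adapters. Cells were kept for 48 h with 1 mM octanoate (2 libraries) or with isopropanol as the vehicle (2 libraries). All 4 libraries came from this 1 line, grown in DMEM with serum, and the labels do not say whether the libraries of a group came from separate cultures. The p-values therefore measure the spread between these libraries, which may be technical.

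Regions were assigned to a gene when they overlapped its RefSeq span (GRCh38.p14) extended by 10 kb on both sides. Of the 125986 regions of the authors' deposited table, 497 (0.394%) met this rule. All 37 genes had at least 1 region. Of these regions 2 belonged to a pair of genes each, 1 to EFNA3 and EFNA4 and 1 to ROBO3 and ROBO4, which makes 499 assignments. The table gives, for each region, a normalized read count averaged over the 4 libraries and the log2 of the fold change from vehicle to octanoate, called the log2 ratio here, with its standard error (SE). Values of single libraries are not in the table used here. Group means quoted as implied were computed from that mean and fold change, and carry no error of their own.

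Eph receptors are receptor tyrosine kinases, and their ephrin ligands are held on the surface of the neighbouring cell, so that contact can signal into both cells. EphA receptors mainly bind the ephrin-A ligands, which are anchored by a lipid, and EphB receptors mainly bind the ephrin-B ligands, which span the membrane. SLIT proteins are secreted and repel cells that carry ROBO receptors. Netrins are secreted too. They attract cells through DCC and repel them through the UNC5 receptors. Melanocytes descend from the neural crest, whose migration uses several of these cues, and EPHA2 is well known in melanoma for its part in migration and drug resistance.

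The 250 bases before each listed gene start were examined for sequence composition. The list of RefSeq starts used here (GRCh38.p14) held 32 of the 37 genes, with 43 starts in all. UNC5B, UNC5D, EFNB3, EPHA10 and NTN1 were missing from that list, though each has a RefSeq span. The median GC content of these windows was 65.6%, against 58.0% over all 35116 listed starts, and the median number of CG dinucleotides was 20 against 11. The AP-1 motif TGANTCA was found in 0 of the 43 windows and in 6.57% of all windows. The E-box CACGTG was found in 1 window, that of EPHA8 (2.33%, against 6.34% of all), and CATGTG in 2, those of EPHB6 and ROBO1 (4.65%, against 9.42%). Both strands were searched, the end of either E-box can overlap the start of TGANTCA, and a match or its lack describes the letters only.

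Below are the 150 bases before 10 starts, 5′ to 3′ on the gene's strand, from RefSeq (GRCh38.p14), with each CG dinucleotide in capitals. EFNB2 and EFNA5 had the strongest regions of the guidance genes, EPHB1 and EFNB1 had among the higher fold changes at a start, and EPHA6 and UNC5C the lowest, among starts with a tested region. ROBO1 and ROBO2 have a pair of listed starts each, at which the signal differed.
EFNB2, chr13:106535663-106535812, minus strand: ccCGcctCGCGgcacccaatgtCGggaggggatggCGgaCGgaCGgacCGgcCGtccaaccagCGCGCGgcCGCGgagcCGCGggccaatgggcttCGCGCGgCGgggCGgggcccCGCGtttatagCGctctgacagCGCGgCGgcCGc
EFNA5, chr5:107670938-107671087, minus strand: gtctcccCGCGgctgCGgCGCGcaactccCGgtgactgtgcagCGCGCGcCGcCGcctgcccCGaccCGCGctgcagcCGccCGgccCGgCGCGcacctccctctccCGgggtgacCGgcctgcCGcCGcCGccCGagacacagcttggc
EPHB1, chr3:134795110-134795259, plus strand: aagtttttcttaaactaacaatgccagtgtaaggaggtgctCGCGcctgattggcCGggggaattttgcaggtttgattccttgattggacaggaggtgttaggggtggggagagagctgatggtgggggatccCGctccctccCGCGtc
EFNB1, chrX:68828871-68829020, plus strand: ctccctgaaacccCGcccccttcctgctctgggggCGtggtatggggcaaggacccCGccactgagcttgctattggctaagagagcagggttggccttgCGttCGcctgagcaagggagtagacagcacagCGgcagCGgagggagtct
EPHA6, chr3:96814444-96814593, plus strand: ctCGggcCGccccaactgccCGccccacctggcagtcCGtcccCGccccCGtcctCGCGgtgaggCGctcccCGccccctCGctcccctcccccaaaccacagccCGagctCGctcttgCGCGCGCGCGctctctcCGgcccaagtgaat
UNC5C, chr4:95548974-95549123, minus strand: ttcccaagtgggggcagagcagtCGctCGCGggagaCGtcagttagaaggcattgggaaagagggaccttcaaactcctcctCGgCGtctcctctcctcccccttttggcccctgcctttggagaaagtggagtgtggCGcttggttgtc
ROBO1 first start, chr3:79767999-79768148, minus strand: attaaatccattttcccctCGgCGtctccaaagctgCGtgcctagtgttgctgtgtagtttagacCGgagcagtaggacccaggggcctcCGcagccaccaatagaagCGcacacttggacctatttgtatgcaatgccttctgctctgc
ROBO1 second start, chr3:79019460-79019609, minus strand: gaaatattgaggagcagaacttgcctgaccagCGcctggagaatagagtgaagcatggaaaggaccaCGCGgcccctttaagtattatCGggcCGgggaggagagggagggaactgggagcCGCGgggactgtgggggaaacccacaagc
ROBO2 first start, chr3:76310730-76310879, plus strand: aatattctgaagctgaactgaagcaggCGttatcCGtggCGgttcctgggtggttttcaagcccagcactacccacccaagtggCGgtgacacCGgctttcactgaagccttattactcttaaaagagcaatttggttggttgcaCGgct
ROBO2 second start, chr3:77039949-77040098, plus strand: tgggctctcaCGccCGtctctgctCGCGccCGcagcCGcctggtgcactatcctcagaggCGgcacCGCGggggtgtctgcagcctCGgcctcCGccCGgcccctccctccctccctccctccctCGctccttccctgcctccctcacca
The EFNB2 stretch held 28 CG dinucleotides and the EFNA5 stretch 25, against 6 before the EPHB1 start and 7 before the UNC5C and EFNB1 starts. The EPHA6 stretch held 19. At ROBO2 the first start had 6 and the second 13, and at ROBO1 the first had 6 and the second 7. The 10 starts were picked for their readouts, so no relation between CG content and signal was tested on them.

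Most regions of the whole table had values above 0. The median log2 ratio over the 125985 nuclear regions per the authors' deposited table was 0.23, and over the 11185 regions that the authors tested (8.88%, those with a mean of at least 63.8) it was 0.19. Values for the guidance genes are read against these medians. As a check of the label, regions within 1 kb of the gene were found for 7 of 7 melanocyte lineage markers per the authors' deposited table, with MITF the strongest at a mean of 168. Regions were also found near 3 of 3 endothelial, 3 of 3 fibroblast, 3 of 4 leukocyte and 2 of 3 keratinocyte markers, so the presence of a region does not set the lineages apart. TEK had the strongest region of these others, with a mean of 145 per the authors' deposited table.

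No region of a guidance gene passed the authors' test. Of the 497 regions 40 were tested (8.05%), in 24 of the 37 genes, and 0 of the 40 reached an adjusted p below 0.05 with DESeq2 and Benjamini-Hochberg adjustment per the authors' deposited table, against 1.02% of all tested regions. At an unadjusted, or nominal, p under 0.05, 2 of the 40 (5.0%) were higher after octanoate and 0 were lower per the authors' deposited table, where all tested regions had 14.8% higher and 0.107% lower. The 2 were a region inside SLIT3 and a region inside EPHB1. The median over the 40 per the authors' deposited table was 0.18, beside 0.19 over all tested regions, and 33 of the 40 were above 0 (82.5%, against 85.7%). With a median SE of 0.21 for the 40, a region of that precision reached a nominal p of 0.05 only from a log2 ratio of 0.41. Smaller differences were not detectable at that precision. The SEs of the 40 ran from 0.11 to 0.27, so the limit differed between regions, and the adjusted p is stricter than the nominal one.

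**Figure D1:**
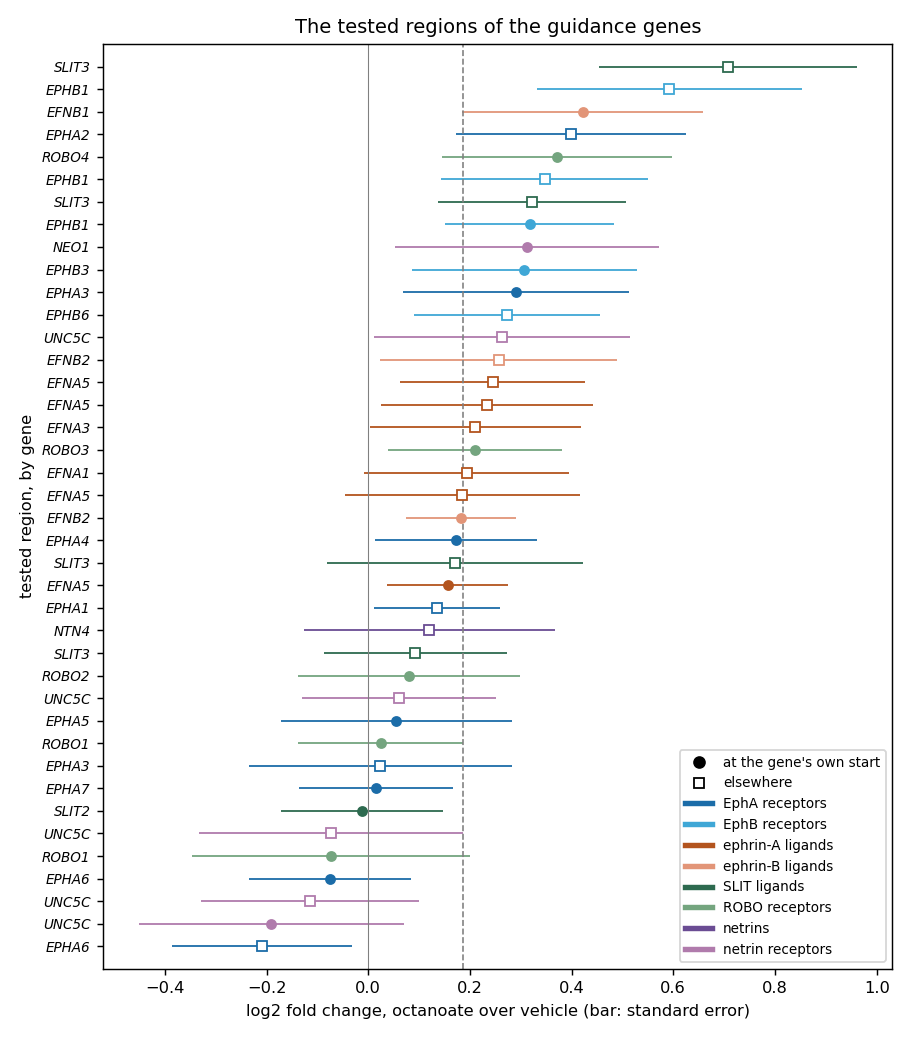
Log2 ratio, octanoate over vehicle (x axis), of the 40 tested regions of the guidance genes (y axis, coloured by role), with the SE from the authors' deposited table as bars. Circles are regions at the gene's own start and squares all others, the solid line is 0 and the dashed line the median of all tested regions (0.19). The values run from -0.21 at EPHA6 to 0.71 at SLIT3.

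The other 457 regions were weaker than the authors' limit and are listed with an adjusted p of 1, read here as not tested. Among them, 13 (2.84%) were higher and 4 (0.875%) were lower at a nominal p under 0.05 per the authors' deposited table, beside 2.48% and 0.186% of all regions below the limit. Over all 497 regions the median log2 ratio per the authors' deposited table was 0.19, the middle 50% ran from -0.16 to 0.49, and 66.4% were above 0, against 72.1% of nuclear regions.

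Among the 9 EphA receptors, 95 regions had a median log2 ratio of 0.20 per the authors' deposited table, and 9 of them were tested. EPHA2 had 9 regions, and its strongest lay inside the gene, 9.93 kb from the start (chr1:16145067-16147203). Its implied means were 90.3 for vehicle and 119 for octanoate, a log2 ratio of 0.40 (SE 0.23, adjusted p 0.399) per the authors' deposited table. This was the highest tested value of the class. The region at the EPHA2 start had a mean of 63.5 per the authors' deposited table, just under the tested limit, and a log2 ratio of 0.21. A weak region past the 3′ end of EPHA2 (chr1:16122787-16123291) had an implied 17.8 for vehicle and 36.3 for octanoate, with a log2 ratio of 1.03 (SE 0.42) per the authors' deposited table. It was higher at a nominal p under 0.05, as were 2.48% of all regions below the limit.

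EPHA6 lay at the other end of the order. The region at its first listed start (chr3:96812887-96815467) had implied means of 179 for vehicle and 170 for octanoate, with a log2 ratio of -0.08 (SE 0.16, adjusted p 0.860) per the authors' deposited table, and LOC124909397 starts within 1 kb of it. A second EPHA6 region (chr3:97764033-97765566), past the 3′ end and at the start of ARL6, had the lowest value of the 40, -0.21 (SE 0.18, adjusted p 0.604) per the authors' deposited table. A weak region inside EPHA6 (chr3:97579331-97579801) had 1.04 (SE 0.51) at a nominal p under 0.05 per the authors' deposited table, where 2.48% of all regions below the limit were higher. No region lay at the second listed start of EPHA6, whose 250-base window held 1 CG dinucleotide against 26 at the first.

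EPHA3, EPHA4, EPHA5 and EPHA7, which guide axons in the developing nervous system, each had a tested region over the start. The log2 ratios per the authors' deposited table were 0.29 at EPHA3, 0.17 at EPHA4, 0.05 at EPHA5 and 0.02 at EPHA7, with SEs of 0.15 to 0.23. The EPHA5 region also lies within 1 kb of the start of its antisense RNA, EPHA5-AS1. The EPHA7 region was wide enough to cover 3 listed starts, and its implied means of 209 and 211 were nearly equal. EPHA4 had 11 regions with a median of 0.60 per the authors' deposited table, and 8 of the 11 were above the median of all nuclear regions, but only the start region was strong enough to be tested. EPHA3 had 21 regions with a median of 0.02 per the authors' deposited table, 6 of them above the median of all nuclear regions. The strongest region assigned to EPHA1, with a mean of 313 per the authors' deposited table, lay past its 3′ end at the starts of ZYX and FAM131B, so it describes those genes as well; its log2 ratio was 0.14 (SE 0.12). EPHA8 had 2 regions and EPHA10 had 6, all weak, with means of at most 9.04 and 15.7 per the authors' deposited table.

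The 5 EphB receptors had 45 regions with a median log2 ratio of 0.28 per the authors' deposited table, and the 5 tested ones were all above 0 (0.27 to 0.59) and above the median of all tested regions. EPHB1, a receptor that guides axons at the optic chiasm, held 3 of these 5. At its start (chr3:134794808-134796862) the implied means were 159 for vehicle and 199 for octanoate, a log2 ratio of 0.32 (SE 0.17, adjusted p 0.348) per the authors' deposited table. A region inside the gene, 52.0 kb on, had a value of 0.35 (SE 0.20, adjusted p 0.415) per the authors' deposited table. The third (chr3:135197050-135197788), 402 kb from the start, had implied means of 53.4 and 80.6, with a log2 ratio of 0.59 (SE 0.26, adjusted p 0.242) per the authors' deposited table. These 3 regions share a gene and libraries and are not replicates of each other.

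Weaker EPHB1 regions also had high values. Of its 19 regions, 14 were above the median of all nuclear regions, and 5 were higher at a nominal p under 0.05, 4 of them below the tested limit, per the authors' deposited table. Over all regions 14.8% of the tested ones and 2.48% of those below the limit were higher. The smallest nominal p among the weak regions of all guidance genes, 0.000636 by the authors' Wald test, belonged to an EPHB1 region (chr3:135215336-135215999) with implied means of 14.6 and 39.5 and a log2 ratio of 1.44 (SE 0.42) per the authors' deposited table. It lies 420.4 kb from the start, beyond the strong region with the value of 0.59. In contrast, the lowest EPHB1 region had a log2 ratio of -1.03 per the authors' deposited table, so its regions did not all point one way.

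EPHB3, which sorts cells along the intestinal crypt, had a start region with implied means of 83.5 and 103 and a log2 ratio of 0.31 (SE 0.22) per the authors' deposited table, and it also lies within 1 kb of the start of LOC124909469. EPHB6 encodes a receptor without kinase activity, and its strongest region had 0.27 (SE 0.18) per the authors' deposited table. That region covers the 5′ end of the RefSeq span of EPHB6 but lies at no listed start. EPHB2 and EPHB4 had no tested region. The strongest EPHB2 region lay inside the gene (chr1:22831955-22832719), with implied means of 25.7 and 42.2 and a log2 ratio of 0.72 (SE 0.36) per the authors' deposited table. EPHB4, a receptor of developing veins, had a start region with a mean of 48.2 and a log2 ratio of 0.14 (SE 0.32) per the authors' deposited table, and that region also lies within 1 kb of the start of SLC12A9.

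Among the ligands, EFNB2, the arterial partner of EPHB4, had the strongest region of all the guidance genes. It spans the start (chr13:106532569-106536880), with implied means of 434 for vehicle and 493 for octanoate and a log2 ratio of 0.18 (SE 0.11, adjusted p 0.425) per the authors' deposited table. The median of all tested regions was 0.19. A second EFNB2 region inside the gene had 0.26 (SE 0.23) per the authors' deposited table and, at 110 normalized reads per kb, the highest mean per length among the 497. EFNA5 followed, with a region over its start (chr5:107668913-107674067) whose implied means were 351 and 391 and which had a log2 ratio of 0.16 (SE 0.12, adjusted p 0.558) per the authors' deposited table. The remaining 3 tested EFNA5 regions, all inside the gene, lay between 0.19 and 0.25 per the authors' deposited table, and all 4 differed by less than the smallest of their SEs. Among its weak regions, 1 was lower (-1.05, chr5:107439530-107440644, implied 32.4 and 15.7) and 1 was higher (0.65, chr5:107542229-107543362) at a nominal p under 0.05 per the authors' deposited table, beside 0.186% lower and 2.48% higher of all regions below the limit.

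EFNB1 had the highest value at any tested start. Its region (chrX:68827802-68829293) had implied means of 66.9 for vehicle and 89.7 for octanoate, with a log2 ratio of 0.42 (SE 0.24, adjusted p 0.395) per the authors' deposited table. The other 6 EFNB1 regions were weak and brought its median to -0.04 per the authors' deposited table. EFNA1, EFNA3 and EFNA4 are neighbours on chromosome 1. The strongest EFNA1 and EFNA3 regions had log2 ratios of 0.19 and 0.21 (SEs 0.20 and 0.21) per the authors' deposited table, and the EFNA1 one lies at the start of SLC50A1. The EFNA1 start itself had a region with a mean of 40.4 and a log2 ratio of 0.57 per the authors' deposited table. At the EFNA3 start, the weak region shared with EFNA4 had a mean of 17.3 and a log2 ratio of 0.87 (SE 0.51) per the authors' deposited table. This was the highest value of the 34 regions at an own start. The EFNA4 start region, which also lies within 1 kb of the start of DCST1-AS1, had a mean of 32.3 and a log2 ratio of -0.02 per the authors' deposited table. EFNA2 had 1 region, at the start of FAM174C, with a log2 ratio of -0.37 (SE 0.34) per the authors' deposited table. EFNB3 had 2 regions, at 0.07 and 0.08 per the authors' deposited table. In all, 35 ephrin-A and 15 ephrin-B regions had medians of 0.19 and 0.08 per the authors' deposited table.

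**Figure D2:**
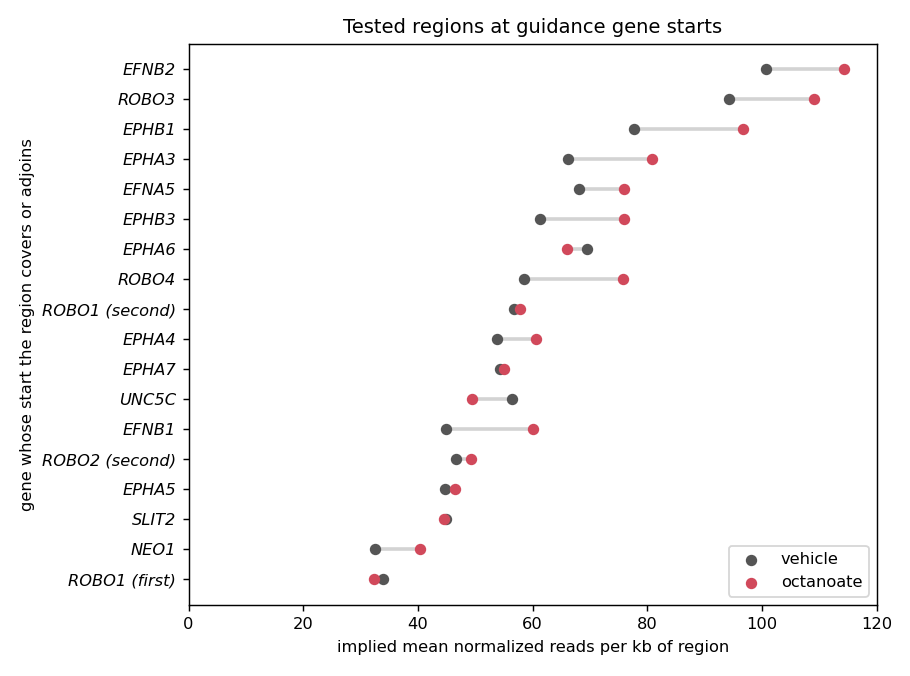
Implied mean normalized reads per kb of region (x axis) in vehicle (grey) and octanoate (red) for the 18 tested regions at a guidance gene's own start (y axis, ordered by mean per kb); the points have no error because the table gives no value per library. EFNB2 is the highest at 101 and 114, and the first ROBO1 start the lowest at 34.0 and 32.3.

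SLIT3 had more regions than any other guidance gene, 66, over a span of 639 kb. Their median log2 ratio was 0.40 per the authors' deposited table, and 46 of the 66 (69.7%) were above the median of all nuclear regions. Of the 66, 56 (84.8%) were above 0, against 72.1% of all nuclear regions. The highest tested value of all 40 was a region inside SLIT3 (chr5:169174763-169175470), 126 kb from the start. Its implied means were 55.1 for vehicle and 89.9 for octanoate, a log2 ratio of 0.71 (SE 0.25, adjusted p 0.126) per the authors' deposited table. The other 3 tested SLIT3 regions had 0.09, 0.17 and 0.32, with SEs of 0.18 to 0.25 per the authors' deposited table, and adjusted p of 0.405 to 0.845. The SLIT3 start region had a mean of 53.3 and a log2 ratio of 0.38 per the authors' deposited table. A further 3 weak regions were higher at a nominal p under 0.05, beside 2.48% of all regions below the limit. The first (chr5:168931508-168932132) had implied means of 16.7 and 41.5 and a log2 ratio of 1.32 (SE 0.40) per the authors' deposited table. The second (chr5:168991370-168993435), at the start of LOC124901130, had 0.60, and the third (chr5:168712193-168713193), with a mean of 62.9 just below the tested limit, had 0.58 (SEs 0.28 and 0.26) per the authors' deposited table.

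SLIT2 is also a secreted repellent. Its strongest region spans the start (chr4:20251320-20255227), with implied means of 176 and 174 and a log2 ratio of -0.01 (SE 0.16, adjusted p 0.979) per the authors' deposited table. Its 29 regions had a median of 0.19 per the authors' deposited table. Inside the gene, 1 weak region (chr4:20464345-20464756, implied 7.75 and 21.2) was higher at a nominal p under 0.05, with 1.45 (SE 0.62) per the authors' deposited table. Of all regions below the limit, 2.48% were higher. SLIT1 had 10 regions, none tested, and the strongest, inside the gene, had a log2 ratio of -0.44 (SE 0.30) per the authors' deposited table.

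ROBO1 and ROBO2, the main neuronal SLIT receptors, lie side by side on chromosome 3 and each have a pair of listed starts 749 kb and 729 kb apart. Of these listed starts, the second had the stronger region in both genes. At ROBO1 the mean per kb was 57.3 at the second start (chr3:79016996-79020112) and 33.1 at the first (chr3:79766299-79768272) per the authors' deposited table. At ROBO2 it was 47.9 at the second (chr3:77038410-77040373) and 26.7 at the first (chr3:76310007-76311353) per the authors' deposited table. The log2 ratios at these listed starts were close to 0. ROBO1 had 0.02 (SE 0.16) at the second start, with implied means of 177 and 180, and -0.07 (SE 0.27) at the first per the authors' deposited table. ROBO2 had 0.08 (SE 0.22) at the second start, with implied means of 91.5 and 96.7, and 0.00 at the first per the authors' deposited table. The RefSeq span of ROBO2 begins upstream of both, and a region over that 5′ end (chr3:75906404-75907570) had a mean of 63.1. It was just under the tested limit, with a log2 ratio of 0.30 (SE 0.27) per the authors' deposited table.

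Over all places, the 47 regions of ROBO1 had a median of 0.02 and the 59 of ROBO2 a median of 0.03 per the authors' deposited table, with 29.8% and 33.9% above the median of all nuclear regions. Among the weak ROBO2 regions 1 was higher at a nominal p under 0.05, with 1.72 (chr3:76470305-76470632), and 2 were lower, with -1.21 (chr3:77449500-77450127) and -1.04 (chr3:77489202-77489651) per the authors' deposited table. Among all regions below the limit, 2.48% were higher and 0.186% lower. ROBO3, a receptor of commissural neurons, had a region over its later starts (chr11:124875559-124877076) with implied means of 143 and 165 and a log2 ratio of 0.21 (SE 0.17, adjusted p 0.586) per the authors' deposited table. This region is shared with the extended span of ROBO4. At the start of ROBO4, the endothelial member, the region had implied means of 78.2 and 101 and a log2 ratio of 0.37 (SE 0.23, adjusted p 0.438) per the authors' deposited table.

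Of the 2 netrins, NTN4 had 1 tested region, past its 3′ end, with a log2 ratio of 0.12 (SE 0.25) per the authors' deposited table, and its start region had a mean of 58.3 and a value of 0.00. NTN1 had no tested region, and its strongest had -0.44 (SE 0.35) per the authors' deposited table. DCC, the attractive netrin receptor, was weakly accessible throughout: its 20 regions had means of at most 25.8 per the authors' deposited table, over a gene of 1196 kb. Its start region was that strongest one, with a log2 ratio of -0.17 (SE 0.43) per the authors' deposited table. NEO1, a relative of DCC, had a start region with implied means of 61.0 and 75.8 and a log2 ratio of 0.31 (SE 0.26, adjusted p 0.599) per the authors' deposited table.

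UNC5C, a repulsive netrin receptor, had the largest number of tested regions, 5, and low values. At its start (chr4:95548750-95550039) the implied means were 72.8 for vehicle and 63.8 for octanoate, a log2 ratio of -0.19 (SE 0.26, adjusted p 0.766) per the authors' deposited table. The strongest UNC5C region, inside the gene (chr4:95304448-95305685), had a mean of 127 and a log2 ratio of 0.06 (SE 0.19) per the authors' deposited table. The other 3 had -0.11, -0.07 and 0.26, with SEs of 0.21 to 0.26 per the authors' deposited table. Over all 28 UNC5C regions the median was -0.07 per the authors' deposited table, and 4 of the 28 (14.3%) were above the median of all nuclear regions. One weak region (chr4:95293542-95294145) was lower at a nominal p under 0.05, with -1.22 (SE 0.61) per the authors' deposited table, as were 0.186% of all regions below the limit. The UNC5C start region also lies within 1 kb of the start of UNC5C-AS1, so the 2 cannot be told apart. The strongest region of UNC5A lay inside the gene, and those of UNC5B and UNC5D spanned the 5′ end of the gene. They were not tested, and had log2 ratios of 0.52, 0.28 and -0.20 (SEs 0.35 to 0.40) per the authors' deposited table.

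**Figure D3:**
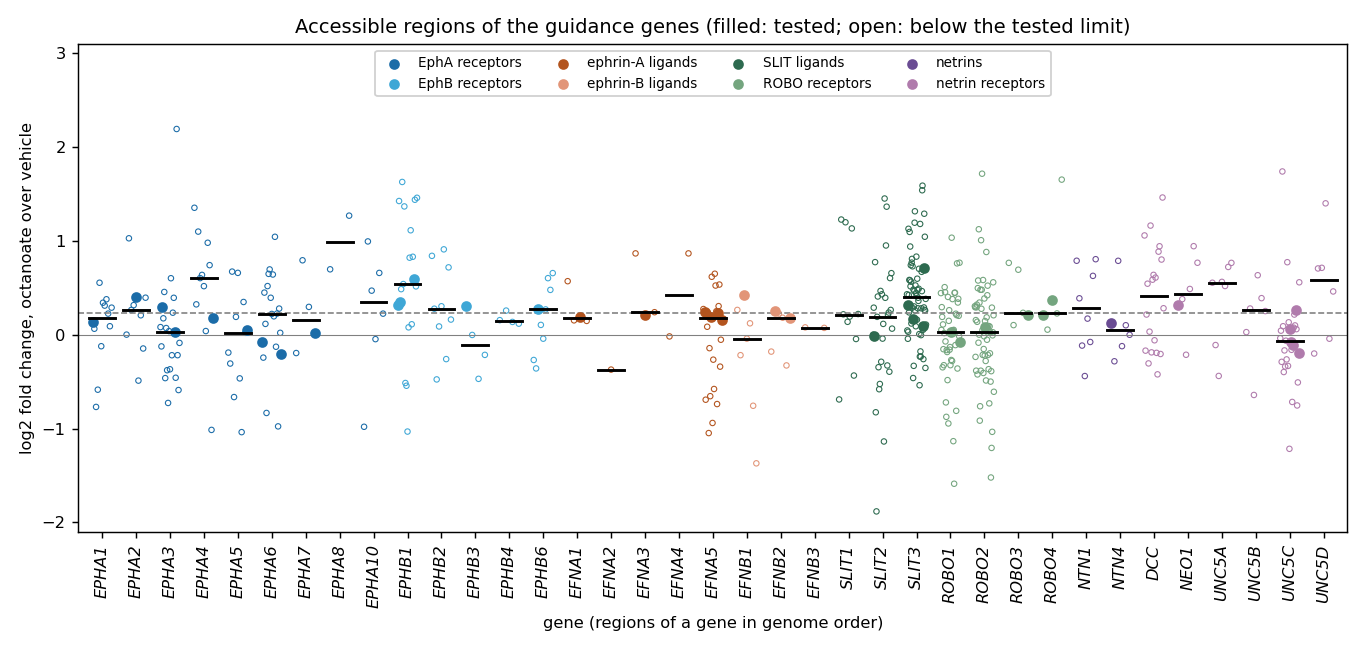
Log2 ratio, octanoate over vehicle (y axis), of every region of each of the 37 genes (x axis); filled points are tested regions, open points lie below the tested limit, black bars are gene medians and the dashed line is the median of all nuclear regions (0.23). Tested regions lie between -0.21 and 0.71, and all regions between -1.88 and 2.19.

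The 10 genes with at least 15 regions were set beside their surroundings, the regions within 1 Mb on either side of the extended span. SLIT3 had a median of 0.40 per the authors' deposited table, against 0.24 over 154 surrounding regions. UNC5C had -0.07 per the authors' deposited table, against 0.15 over 74. For EPHB1 the values were 0.54 per the authors' deposited table and 0.30 over 125, and for ROBO2 0.03 and 0.17 over 64. At ROBO1 they were 0.02 per the authors' deposited table and -0.0017 over 38, so its surroundings had a low median too. EPHA3 had 0.02 per the authors' deposited table, against 0.17 over 50. In the other 4 the medians were 0.41 and 0.35 over 52 for DCC, 0.19 and 0.15 over 58 for SLIT2, 0.22 and 0.17 over 76 for EPHA6, and 0.18 and 0.21 over 93 for EFNA5 per the authors' deposited table. Regions of 1 gene share their libraries and neighbourhood, and the differences between genes were not tested.

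**Figure D4:**
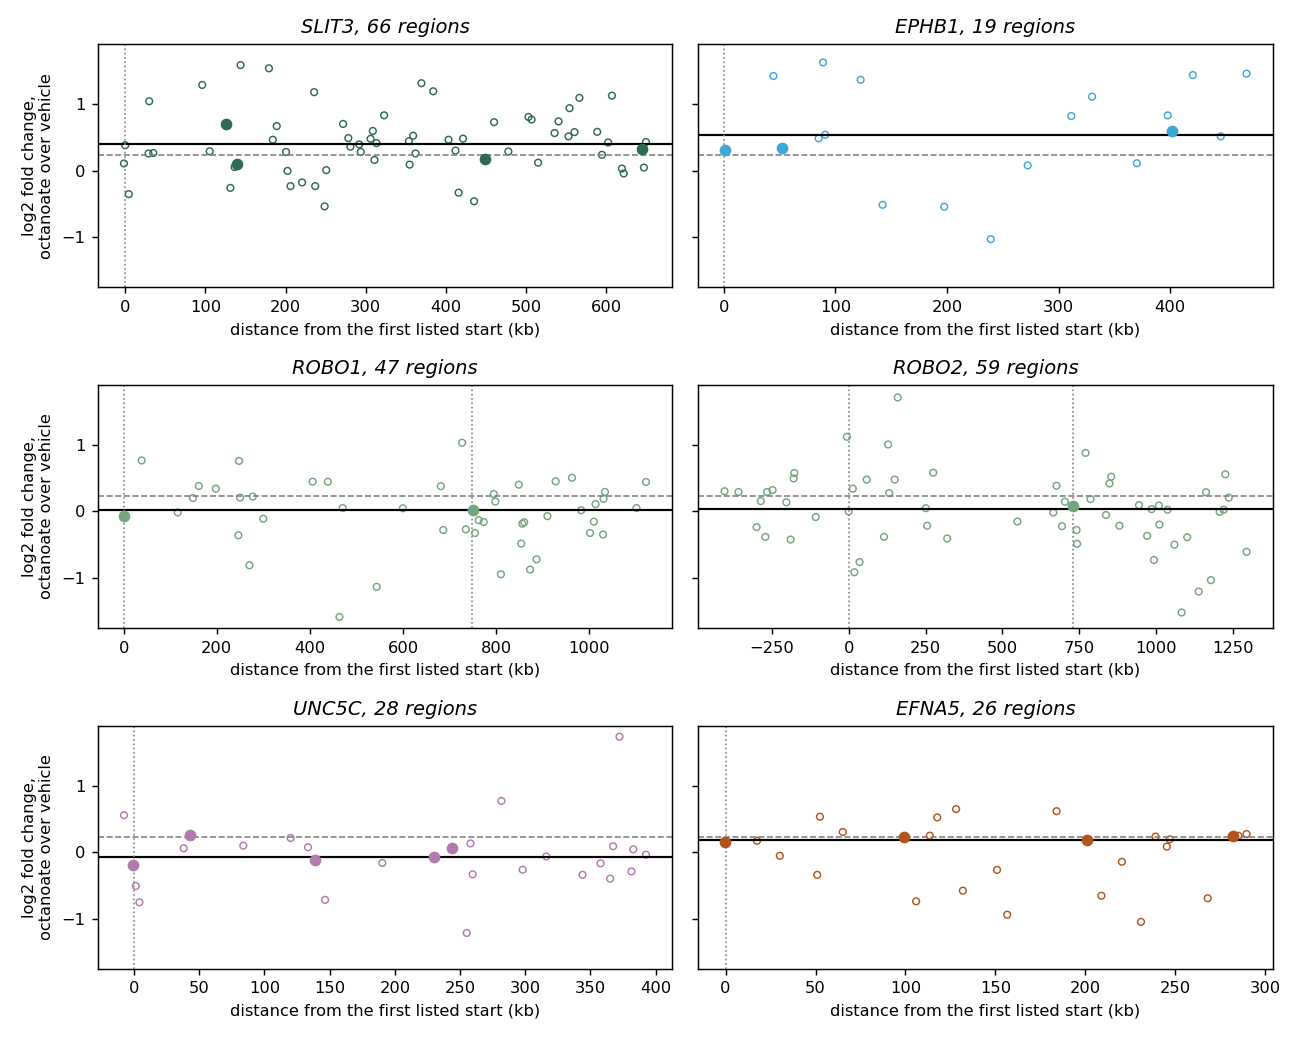
Log2 ratio, octanoate over vehicle (y axis), against distance from the first listed start along the gene (x axis, kb) for 6 of the genes with most regions; filled points are tested regions, dotted lines are listed starts, solid lines are gene medians and dashed lines the median of all nuclear regions (0.23). Of the SLIT3 regions 46 of 66 lie above the dashed line, and of the UNC5C regions 4 of 28.

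Position relative to the gene start was also compared. For the 32 genes with a listed start, 34 regions lay within 1 kb of an own start, in 29 of the genes, and 18 of them were tested (52.9%), against 5.06% of the 435 others. Their median of mean reads per kb was 44.1 against 25.9. Regions over the 5′ ends of the EPHB6 and ROBO2 spans lie at no listed start and count among the others. The start regions had a median log2 ratio of 0.15 and the others 0.19 per the authors' deposited table, a difference of -0.04. Over all nuclear regions, set apart as at any listed start or at none, the medians were 0.15 and 0.25 per the authors' deposited table, a difference of -0.10. Over the 454 guidance gene regions at no listed start of any gene, a set compared after the data were seen, the median was 0.20 per the authors' deposited table. Of the 40 tested regions 18 lay at an own start, 3 at the start of another gene only and 19 at no listed start. At a nominal p under 0.05, 0 of the 34 start regions were higher or lower per the authors' deposited table, where all regions at a listed start had 4.8% higher and 0.0404% lower. Of the 454 guidance gene regions at no listed start of any gene, 14 were higher and 4 lower per the authors' deposited table, where all regions at no listed start had 3.41% higher and 0.197% lower. With 34 regions, 0 is near the share over all starts.

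Other genes of these pathways, such as effectors below the receptors, were counted in the same way. Their list held 38 genes with 403 regions and a median log2 ratio of 0.17 per the authors' deposited table. Among the 40 that were tested, 0 passed an adjusted p of 0.05 per the authors' deposited table, and 5 were higher and 0 lower at a nominal p under 0.05. Over all tested regions 1.02% passed the adjusted p, and 14.8% were higher and 0.107% lower at the nominal one, so these counts are not above the background. SRGAP1, which acts below the ROBO receptors, had the smallest p of the 40, inside the gene (chr12:63917475-63919396), with implied means of 63.9 and 100.3, a log2 ratio of 0.65 (SE 0.23) and an adjusted p of 0.121 per the authors' deposited table. The region at the start of GPC1, a cell surface proteoglycan that binds SLIT, had 0.53 (SE 0.21, adjusted p 0.171) per the authors' deposited table. Of the 40 tested regions 38 were above 0, and the 2 below it were per the authors' deposited table -0.02 at RGMB, which encodes a ligand of NEO1, and -0.01 at VAV3.

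The semaphorins, plexins and neuropilins, another guidance system, had 316 regions with a median of 0.22, and 1 of the 27 that were tested passed an adjusted p of 0.05 per the authors' deposited table, against 1.02% of all tested regions. This is a single region, and its difference from the 0 of the guidance genes was not tested. The nearest region past the threshold to any guidance gene lay 170 kb from EFNB2 (chr13:106318791-106319491), with a log2 ratio of 1.06 and an adjusted p of 0.0123 per the authors' deposited table. For EPHB1 and EPHA2 the nearest lay 367 kb and 465 kb away. For the other 34 genes it was over 1 Mb away.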

How the data were processed

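ATAC-seq was analysed from 1 table that the authors deposited for octanoate against vehicle, over 2 libraries a group, without values for single libraries. Per the submitters' processing notes, Trim Galore, cutadapt, FastQC, Bowtie2, Picard, MACS2, featureCounts, DESeq2 and bedtools 2.29.1 were used with build hg38, without roles or settings. The merging of regions and any shift for the Tn5 cut are not given in the sources used here. Per the file headers, the deposited signal is a mean normalized read count, and its scaling is not stated. The deposited log2 fold change, its standard error, the Wald score and the p-value and adjusted p-value are the authors', per the file headers. The adjusted p equalled Benjamini-Hochberg over 11185 regions and was listed as 1 elsewhere, which was treated as not tested. Depth per library is unknown, so no counting interval is given.

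Regions were joined to genes, and to starts within 1 kb, with RefSeq tables of GRCh38.p14 in Python 3.11.15 (pandas 2.3.3, numpy 2.4.6, scipy 1.17.1, matplotlib 3.10.9), with coordinates counted from 1. The overlap and adjustment steps were tested on simulated data. The tests are the authors', and medians are descriptions. For each gene the strongest region, and the highest and lowest tested regions, were named, with all regions past the threshold. Weak regions with an unadjusted p under 0.05 and the genes' surroundings were added after their values were seen. Members and lists were chosen with earlier results of these data known. Alternatives were other gene extensions, thresholds, centrings, start distances and signal minimums, and leaving out each gene.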

Additional observations from a re-analysis of the deposited data

How the results depend on the processing

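The count of 0 regions past the threshold stayed at 0 under each alternative run: Benjamini-Hochberg over all regions, an adjusted p of 0.1 or 0.01, centring on the tested median, no extension of the genes and an extension by 50 kb. The median over all 497 regions, 0.19, was 0.15 to 0.21 under the other extensions, 1 region per gene, a signal minimum and leaving out each gene. It was lowest with 1 region per gene (0.146), and 0.153 without SLIT3. Centred on the median of all nuclear regions it became -0.039, and the tested median of 0.18 became -0.0029 when centred on all tested regions. The start difference of -0.04 was -0.07 within 3 kb and -0.06 at or above the median signal. It was -0.04 in tested regions alone, a setting chosen after the data were seen.

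Subtracting the tested median lowers every value alike, so values below 0 cannot turn and a count of signs kept does not measure stability. Of 47 named regions 33 kept their sign after the tested median was subtracted. The other 14 turned below 0, since their log2 values were smaller than that median: EFNA5 -0.031, EFNB2 -0.0041, EFNB3 -0.11, EPHA1 -0.051, EPHA3 -0.16, EPHA4 -0.014, EPHA5 -0.13, EPHA7 -0.17, EPHB4 -0.050, NTN4 -0.067, ROBO1 -0.16, ROBO2 -0.11, SLIT3 -0.094, UNC5C -0.13. No paired analysis was possible because values of single libraries are not in the table used here. Hence leaving out a replicate, edgeR with TMM and count filters were not run.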
